A study of Mus musculus with 5 samples.

Results

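The genes described here are those of the cell surface Toll-like receptors (TLRs) with their co-receptors and 1 adaptor: Tlr1, Tlr2, Tlr4, Tlr5 and Tlr6, the co-receptors Cd14, Ly96 and Cd180, and the adaptor Ticam1. They were taken by gene symbol, and all 9 were found among the 22815 symbols listed in the deposited table of cells recovered by peritoneal lavage. RNA of these cells was sequenced by Smart-seq2, a method for polyadenylated RNA from little material. Of the 5 libraries, 2 came from Irf8-deficient mice given pristane (labelled Irf8KO pristane), 2 from wild-type C57BL/6 (WT) mice given pristane and 1 from WT mice that received PBS, a salt solution, instead (WT PBS). All mice were 8 weeks old, and pristane, a mineral oil component that inflames the peritoneum, was given to both groups of the genotype comparison. The labels give neither the kind of Irf8 allele nor the number of animals behind a library. The p-values therefore cover the variation from library to library, which may be technical.

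Surface TLRs are transmembrane receptors of myeloid cells that bind molecules of microbes and start NF-kB signalling through the adaptor Myd88. Tlr2 pairs with Tlr1 for triacylated lipopeptides and with Tlr6 for diacylated ones, and Tlr5 binds flagellin. Tlr4 binds lipopolysaccharide (LPS) in a complex with Ly96 (also called MD-2), to which Cd14 passes LPS, and Tlr4 also signals through Ticam1 (also called TRIF), which it shares with the endosomal Tlr3. Cd180 (also called RP105) resembles Tlr4 without its signalling domain, is paired with Ly86 (MD-1), takes part in B cell activation and restrains Tlr4 signalling in myeloid cells. In the peritoneum, resident macrophages, recruited monocytes and neutrophils, and B cells carry different sets of these receptors.

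Tlr2 was the member past the threshold in the test over all genes: it was higher after pristane in WT mice. Tlr1 and Tlr6 are neighbouring genes, and Tlr1 had the largest difference from WT pristane of the 9 members in the libraries labelled Irf8KO. The start regions of these 3 genes are therefore shown, from RefSeq on GRCm38.p6, as the 250 bases before 1 annotated start, written 5′ to 3′ on the strand of the gene. The windows are chr3:83841609-83841858 (minus strand) for Tlr2, chr5:64933559-64933808 (minus strand) for Tlr1 and chr5:64959167-64959416 (minus strand) for Tlr6. Capitals mark matches, on either strand, to 1 of 4 letter patterns listed after the sequences.
Tlr2: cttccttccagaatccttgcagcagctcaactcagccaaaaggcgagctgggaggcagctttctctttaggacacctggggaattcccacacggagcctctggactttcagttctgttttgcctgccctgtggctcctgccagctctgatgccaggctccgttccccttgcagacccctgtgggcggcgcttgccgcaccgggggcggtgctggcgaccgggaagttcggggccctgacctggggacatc
Tlr1: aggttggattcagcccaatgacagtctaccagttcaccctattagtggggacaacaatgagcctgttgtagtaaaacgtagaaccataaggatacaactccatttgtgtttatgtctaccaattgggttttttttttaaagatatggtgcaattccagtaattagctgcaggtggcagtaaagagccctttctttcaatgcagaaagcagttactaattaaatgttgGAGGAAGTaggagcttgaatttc
Tlr6: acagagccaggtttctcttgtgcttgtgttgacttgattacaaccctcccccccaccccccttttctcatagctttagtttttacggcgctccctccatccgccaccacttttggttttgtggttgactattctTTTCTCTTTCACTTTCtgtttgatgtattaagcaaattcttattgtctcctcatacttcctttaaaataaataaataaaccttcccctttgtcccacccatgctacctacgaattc
The patterns searched on both strands were GAGGAAGT (PU.1), GAAA and GAAA with any 2 bases between them (the core of the interferon-stimulated response element), GGAA and GAAA with any 2 bases between them (a composite of ETS and IRF sites), and GGG and TTTCC with any 2 bases between them (NF-kB). In the Tlr1 window the capitals are a PU.1 pattern 23 to 16 bases before the start, a pattern held by 2.44% of the 32851 windows of this length in the table. In the Tlr6 window they are a pair of overlapping response element cores on the opposite strand, 116 to 101 bases before the start, a pattern held by 2.98% of all windows. Tlr1 and Tlr6 each have another listed start, and the windows before those held 0 matches. The bases that follow the Tlr6 start shown were not found in a Tlr6 transcript of GENCODE M21, and those that follow its other start were. None of the 4 patterns was matched in the Tlr2 window. The NF-kB pattern was 1 fixed form, so sites of other letters were not scored, and gggaattccc in this window is not a match. RefSeq windows were present for 6 members with 9 starts in all, and the matches shown were the only ones among them; 2.30% and 1.41% of all windows held the composite and NF-kB patterns.

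Values were FPKM (fragments per kilobase of transcript, scaled by the library's fragments), which allows levels of genes of different length to be compared. Summed FPKM ran from 451694 to 582696 per library. The steps between the lowest values corresponded to about 5011000 and 3306000 fragments in the libraries labelled Irf8KO, 4070000 and 2878000 in WT pristane and 2258000 in WT PBS. Irf8 RNA was not lower in the Irf8KO-labelled pair (120.5 and 59.4 FPKM), against 63.3 and 48.7 FPKM in WT pristane and 32.4 FPKM in WT PBS, so values per gene gave no check of the genotype. The sexes were mixed: Xist was at 8.81 FPKM in WT pristane replicate 2 and 43.5 FPKM in WT PBS, and at 0.0148 FPKM or lower in the other 3 libraries, where Eif2s3y, a gene of the Y chromosome, had 23.2 and 25.6 FPKM in the Irf8KO-labelled pair and 12.9 FPKM in WT pristane replicate 1. All 9 members reached 1 FPKM in at least 1 library and were among the 11117 genes tested, with limma on log2(FPKM + 1) and Benjamini-Hochberg adjustment over all of them. The threshold was an adjusted p of 0.05. The single WT PBS library was taken to be as variable as the other libraries.

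**Figure D1:**
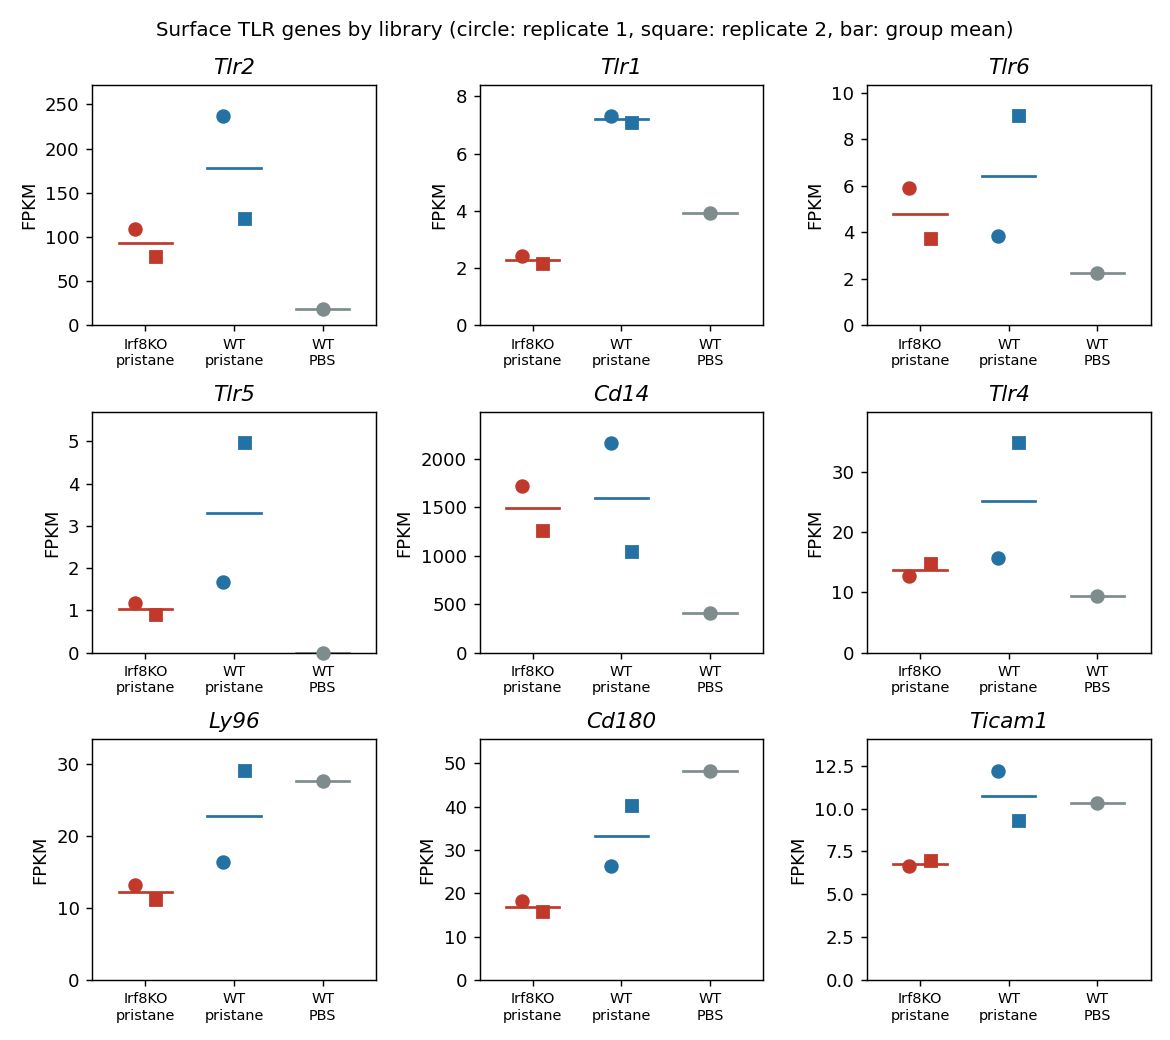
FPKM of the 9 genes in each library, with linear axes that start at 0. Points are libraries and horizontal bars are group means. Tlr1 separates the 3 groups, with little spread inside either pristane group and no replicate for WT PBS. Tlr2 and Cd14 are lowest in WT PBS, and Cd180 is highest there.

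Cd14 RNA was the most abundant of the 9 in every library, and Tlr5 the least. With PBS the order was Cd14, Cd180, Ly96, Tlr2, Ticam1, Tlr4, Tlr1, Tlr6 and Tlr5. After pristane, Tlr2 stood next to Cd14 in both genotypes, followed by Cd180, Tlr4, Ly96 and Ticam1. Within each WT pristane library Cd180 was above Tlr4 and Ly96, and Tlr6 was above Tlr5. The order of Tlr4 with Ly96 and that of Tlr1 with Tlr6 differed between the WT pristane libraries. In the libraries labelled Irf8KO only Tlr4 and Ly96 changed places, and Tlr6 stood above Tlr1 in both.

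Among the lipopeptide receptors, Tlr2 carried most of the RNA. Tlr2 had 109 and 77.5 FPKM in Irf8KO-labelled libraries, 236 and 120.2 FPKM in WT pristane, and 18.1 FPKM in WT PBS. All 4 pristane libraries were well above the PBS library, and the 2 pristane groups did not overlap. Relative to PBS, Tlr2 rose by 3.15 ± 0.50 (SE) on the log2 scale in WT pristane, with an adjusted p of 0.0420 by limma and a 95% interval from 1.76 to 4.54. In the libraries labelled Irf8KO the log2 difference from PBS was 2.28 ± 0.50 (SE), with a limma adjusted p of 0.0697. Between the pristane groups it was −0.87 ± 0.41 (SE), with a limma adjusted p of 0.331 and an interval from −2.004 to 0.27. Without WT pristane replicate 1 the difference between the pristane groups was −0.38, and without WT pristane replicate 2 it was −1.35. With any 1 of the 4 pristane libraries left out, the log2 difference of WT pristane from PBS was 2.67 to 3.64. No gene at all passed in those fits, so they could not show whether the Tlr2 call was stable. The call after pristane in WT mice was lost with a pseudocount of 0.1 (limma adjusted p 0.0513).

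Tlr1 had the largest log2 difference between the pristane groups of the 9 members. It stood at 2.43 and 2.13 FPKM in the Irf8KO pristane libraries, at 7.30 and 7.09 FPKM in WT pristane, and at 3.92 FPKM in WT PBS. The libraries labelled Irf8KO lay below all WT libraries, with and without pristane, and replicates lay close together. The log2 difference of Irf8KO pristane from WT pristane was −1.32 ± 0.20 (SE), with an unadjusted p of 0.00254 and an adjusted p of 0.0981 by limma, and a 95% interval from −1.87 to −0.78. It did not pass over all genes, and its value lay between −1.62 and −1.26 in the alternatives that tested it (limma adjusted p 0.0879 to 0.505). Against PBS the log2 differences were −0.59 ± 0.24 (SE) for Irf8KO pristane and 0.74 ± 0.24 (SE) for WT pristane, with limma adjusted p of 0.180 and 0.126. These levels rested on few fragments, about 37 and 21 in the libraries labelled Irf8KO, 90 and 62 in WT pristane and 27 in WT PBS.

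Tlr6, the neighbour of Tlr1, had 5.91 and 3.70 FPKM in Irf8KO-labelled libraries, 3.84 and 8.98 FPKM in WT pristane and 2.24 FPKM in WT PBS. The pristane groups overlapped, and all 4 pristane libraries were above PBS. The log2 difference between the pristane groups was −0.29 ± 0.46 (SE), with a limma adjusted p of 0.759 and an interval from −1.56 to 0.99, and it was 0.23 without WT pristane replicate 2. Relative to PBS the log2 differences were 0.82 in Irf8KO pristane and 1.10 in WT pristane, both with an SE of 0.56 and neither past the threshold. The level of Tlr6 per unit of Tlr1 was 2.44 and 1.74 in the libraries labelled Irf8KO, against 0.526 and 1.27 in WT pristane and 0.571 in WT PBS. Tlr1 and Tlr6 share sequence: 15.3% of the 50-base windows of the longest Tlr1 coding transcript occur in that of Tlr6, so fragments from the shared stretch may have been split between them. The other members had no such window in common with one another.

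Tlr5, the flagellin receptor, was near the limit of what these libraries could measure. It had 1.17 and 0.888 FPKM in Irf8KO-labelled libraries, 1.66 and 4.95 FPKM in WT pristane, and was listed at 0 in WT PBS. The pristane groups did not overlap, but the 2 WT pristane values differed 2.97-fold from each other. The log2 difference of Irf8KO pristane from WT pristane was −0.98 ± 0.45 (SE), with a limma adjusted p of 0.321. It was −0.40 without WT pristane replicate 2 and −1.56 without WT pristane replicate 1. The values stood for about 22 and 11 fragments in the libraries labelled Irf8KO and about 26 and 54 in WT pristane. A listed 0 may be a failed estimate, so no fold change from PBS is given.

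In the LPS receptor complex, Cd14 was high in all pristane libraries. Cd14 had 1721 and 1256 FPKM in Irf8KO-labelled libraries, 2159.6 and 1037 FPKM in WT pristane, and 409 FPKM in WT PBS. The pristane groups overlapped, and both lay above PBS. Relative to PBS the log2 difference was 1.84 ± 0.55 (SE) in Irf8KO pristane and 1.87 ± 0.55 (SE) in WT pristane, with limma adjusted p of 0.108 and 0.104, so neither passed. Between the pristane groups the log2 difference was −0.03 ± 0.45 (SE), with an interval from −1.26 to 1.21 that includes a doubling in either direction. It turned positive, to 0.50, without WT pristane replicate 1, and to 0.20 without Irf8KO pristane replicate 2.

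Tlr4 itself had 12.7 and 14.8 FPKM in Irf8KO-labelled libraries, 15.6 and 34.7 FPKM in WT pristane and 9.43 FPKM in WT PBS. The libraries labelled Irf8KO lay just under the lower WT pristane library, and the 2 WT pristane values stood 2.22-fold apart. The log2 difference between the pristane groups was −0.73 ± 0.43 (SE), with a limma adjusted p of 0.412. It was −0.18 without WT pristane replicate 2 and −1.28 without WT pristane replicate 1. Against PBS it was 0.50 in Irf8KO pristane and 1.23 in WT pristane, both with an SE of 0.52 and neither past the threshold.

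Ly96, the subunit that holds LPS, had 13.2 and 11.01 FPKM in Irf8KO-labelled libraries, 16.4 and 29.0 FPKM in WT pristane and 27.6 FPKM in WT PBS. Its level in PBS lay inside the range of WT pristane and above both libraries labelled Irf8KO. The log2 difference from WT pristane was −0.81 ± 0.33 (SE) and from PBS −1.13 ± 0.40 (SE), with limma adjusted p of 0.280 and 0.146. The first was −0.41 without WT pristane replicate 2 and −1.20 without WT pristane replicate 1. Ly96 has a short transcript, and its levels rested on about 42 and 23 fragments in Irf8KO-labelled libraries, 42 and 53 in WT pristane and 39 in WT PBS. WT pristane differed from PBS by −0.33 ± 0.40 (SE), and by 0.07 without WT pristane replicate 1. The proportions of the chains varied between libraries: Cd14 per unit of Tlr4 was 135 and 84.9 in the libraries labelled Irf8KO, 138 and 29.8 in WT pristane and 43.3 in WT PBS. Ly96 per unit of Tlr4 was 1.04 and 0.744 in the libraries labelled Irf8KO, 1.05 and 0.835 in WT pristane and 2.93 in WT PBS. The PBS library was the one with clearly more Ly96 than Tlr4, with no replicate to give its spread.

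Cd180 was the member with its highest level in the PBS library outside the range of both pristane groups. It had 18.2 and 15.6 FPKM in Irf8KO-labelled libraries, 26.2 and 40.3 FPKM in WT pristane and 48.3 FPKM in WT PBS. The 3 groups did not overlap. The log2 difference was −0.91 ± 0.27 (SE) for Irf8KO pristane against WT pristane and −1.47 ± 0.33 (SE) for Irf8KO pristane against PBS, with limma adjusted p of 0.194 and 0.0723. The second passed, at a limma adjusted p of 0.0458, when genes were kept by a mean of at least 5 FPKM. WT pristane differed from PBS by −0.56 ± 0.33 (SE), with a limma adjusted p of 0.304.

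Ly86, which encodes the partner that Cd180 needs to reach the cell surface, had larger differences than Cd180 in all 3 comparisons; the gap between the genes was not tested. Ly86 had 7.73 and 9.87 FPKM in Irf8KO-labelled libraries, 142 and 114 FPKM in WT pristane and 348 FPKM in WT PBS. The groups were far apart and replicates close. Relative to PBS it fell by 5.16 ± 0.26 (SE) on the log2 scale in Irf8KO pristane and by 1.44 ± 0.26 (SE) in WT pristane, with limma adjusted p of 0.0264 and 0.0485. With any 1 of the 4 pristane libraries left out, the differences lay between −5.32 and −5.004 and between −1.60 and −1.29. No gene at all passed in those fits, so they could not show whether the Ly86 calls were stable. The WT pristane call was lost with a pseudocount of 0.1, with no filter and with every library rescaled to 1 common sum (limma adjusted p 0.0586, 0.0660 and 0.0543). Against WT pristane the log2 difference of Irf8KO pristane was −3.72 ± 0.21 (SE), with an unadjusted p of 6.02e-05 and an adjusted p of 0.0541 by limma, and a 95% interval from −4.30 to −3.14. It missed the threshold over all genes and passed (limma adjusted p 0.00840) when genes were kept by a mean of at least 5 FPKM. Ly86 per unit of Cd180 was 0.424 and 0.634 in the libraries labelled Irf8KO, 5.41 and 2.84 in WT pristane and 7.20 in WT PBS. Only in the libraries labelled Irf8KO was Cd180 RNA above that of its partner.

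**Figure D2:**
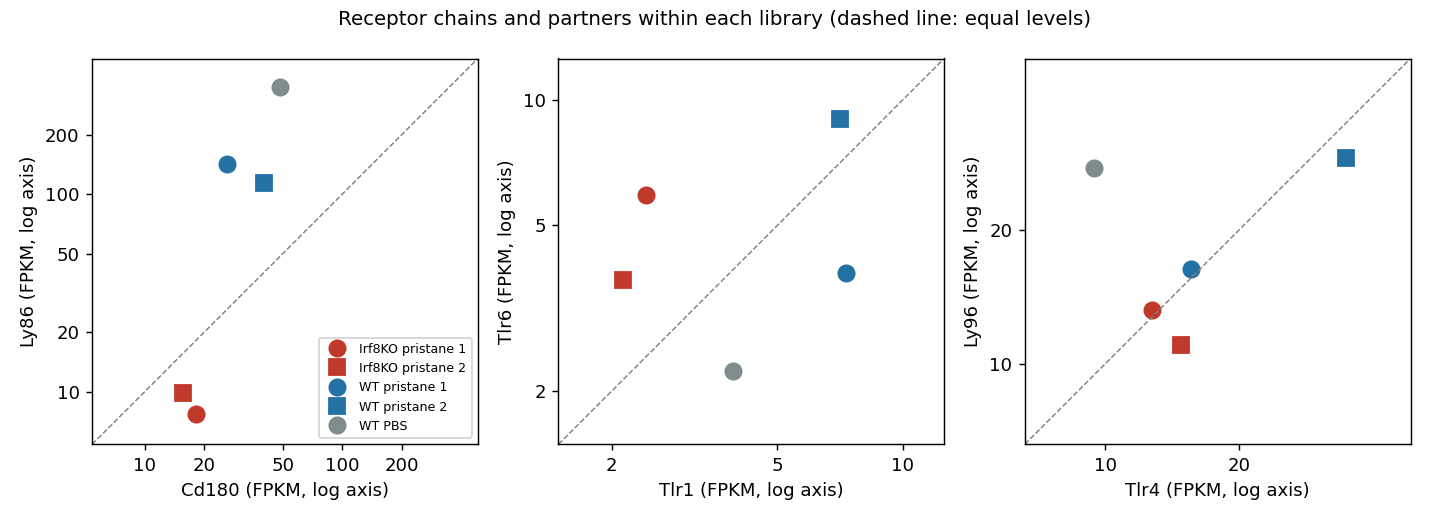
FPKM of receptor chains against partners in each library on log axes, with a dashed line at equal levels. In the libraries labelled Irf8KO, Ly86 lies below the line against Cd180 and Tlr6 lies above the line against Tlr1, as it does in WT pristane replicate 2. Ly96 exceeds Tlr4 clearly in WT PBS.

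Ticam1, the adaptor of the TRIF branch, had 6.63 and 6.93 FPKM in Irf8KO-labelled libraries, 12.2 and 9.26 FPKM in WT pristane and 10.3 FPKM in WT PBS. The libraries labelled Irf8KO lay below all 3 WT libraries, and PBS lay inside the WT pristane range. The log2 difference from WT pristane was −0.58 ± 0.22 (SE), with a limma adjusted p of 0.250. WT pristane differed from PBS by 0.04 ± 0.26 (SE), with an interval from −0.69 to 0.78, and the sign turned with quantile normalization (−0.02).

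**Figure D3:**
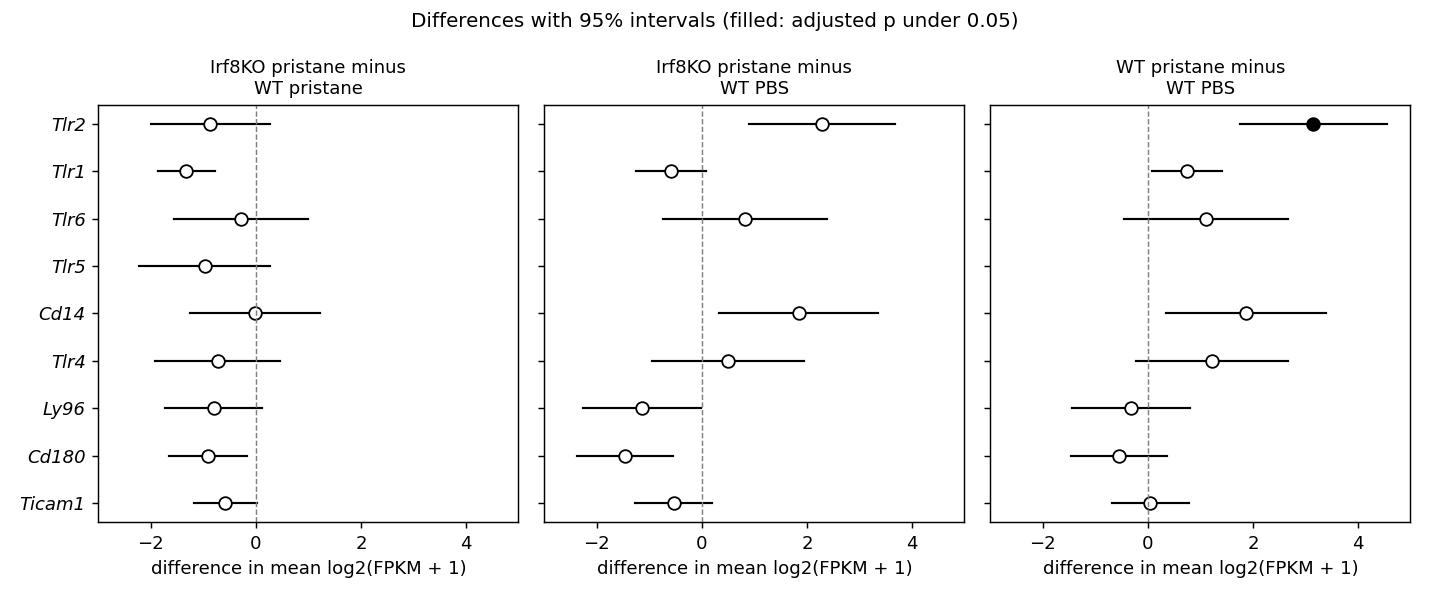
Differences between group means of log2(FPKM + 1) for each gene, with 95% intervals, in the 3 comparisons. Filled points have an adjusted p under 0.05 by limma, which holds for Tlr2 in WT pristane minus WT PBS. Tlr5 is left out against WT PBS, where it was listed at 0.

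Set side by side, 7 of 9 members were lower in both libraries labelled Irf8KO than in both WT pristane libraries, and none was higher in both. Over all genes tested, 27.1% were lower without overlap in this way and 26.1% higher. The median log2 difference of the 9 members was −0.81, against −0.00 over all genes. By limma 0 of the 9 passed, 2 (Tlr1 and Cd180) had an unadjusted p under 0.05, and 0.0270% of all genes passed (3 genes, all lower), with 10.1% lower and 10.5% higher at an unadjusted p under 0.05. When genes were kept by a mean of at least 5 FPKM, 242 genes passed, 105 higher and 137 lower, and 0 of the 6 members kept by that filter. Rescaling every library to the same sum shifted all genes in the libraries labelled Irf8KO by a median of −0.19 on the log2 scale, so negative differences stated here would be larger on that scale, and all 9 members stayed below 0. Against WT pristane replicate 1 alone, the WT pristane library without Xist, 8 of 9 members were still lower in the libraries labelled Irf8KO, and Tlr6 was higher by 0.23 on the log2 scale; Tlr1 differed by −1.34, Tlr2 by −1.35 and Tlr4 by −0.18.

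In WT pristane against PBS, 6 of 9 members were above the PBS library in both pristane libraries and 1, Cd180, below it in both, where 37.3% and 44.5% of all genes were. Without Tlr5 the median log2 difference was 0.92, against −0.07 over all genes. Tlr2 alone passed the threshold, where 10.6% of all genes did (5.18% higher, 5.46% lower). At an unadjusted p under 0.05, 4 members were higher and 0 lower, where 15.9% and 17.8% of all genes were. Tlr5, listed at 0 in WT PBS, is in these counts. Without it, 5 of 8 members were above PBS in both WT pristane libraries, and 3 were higher at an unadjusted p under 0.05 by limma. In Irf8KO pristane against PBS, 5 of 9 lay above PBS (40.7% of all genes), or 4 of 8 without Tlr5. The members below it were 4 (46.0% of all genes): Tlr1, Ly96, Cd180 and Ticam1. The median without Tlr5 was −0.02, against −0.05 over all genes, and 0 of the 9 passed, where 8.54% of all genes did (3.81% higher, 4.72% lower). Of the 949 genes behind that percentage 424 were higher and 525 lower, or 341 and 713 with every library rescaled to the same sum. At an unadjusted p under 0.05, 2 members were higher and 2 lower, where 15.6% and 18.1% of all genes were. Both comparisons used the same single PBS library, so they are not independent of each other. The PBS library expressed Xist and the Irf8KO-labelled pair did not, so for them sex and group cannot be told apart. WT pristane replicate 2, which did, gave log2 differences from PBS of 2.67 for Tlr2 and 1.78 for Tlr4.

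Other genes of the pathway were taken from lists. Of 4 tested TIR adaptors, Myd88, the adaptor shared by most TLRs, rose in both comparisons with PBS, with 69.7 and 56.7 FPKM in Irf8KO-labelled libraries, 92.2 and 89.8 FPKM in WT pristane and 25.1 FPKM in WT PBS. Its log2 differences from PBS were 1.29 ± 0.21 (SE) and 1.82 ± 0.21 (SE), with limma adjusted p of 0.0477 and 0.0301. Pik3ap1 (also called BCAP), which links TLRs to phosphoinositide 3-kinase, rose in WT pristane (1.71 ± 0.29 SE, limma adjusted p 0.0451), with 24.9 and 17.6 FPKM in Irf8KO-labelled libraries, 69.4 and 81.1 FPKM in WT pristane and 22.2 FPKM in WT PBS. The libraries labelled Irf8KO thus lay around the PBS level of Pik3ap1. In the TRIF branch 2 of 8 genes rose in WT pristane, the transcription factor Irf7 (5.85) and the kinase Ikbke (2.01), with limma adjusted p of 0.0215 and 0.0471, and 0 of 8 passed in Irf8KO pristane against PBS. Over all genes 5.18% rose in WT pristane against PBS, and 8.54% passed in either direction in Irf8KO pristane against PBS. Irf7 stood at 11.4 and 15.7 FPKM in the Irf8KO pristane libraries, 393 and 482 FPKM in WT pristane and 6.55 FPKM in WT PBS.

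The 9 tested Myddosome kinases and ubiquitin ligases and the 7 genes of receptor folding and transport held 0 genes past the threshold in any comparison. The shares of all genes that passed were 0.0270% for Irf8KO against WT pristane, 10.6% for WT pristane against PBS and 8.54% for Irf8KO pristane against PBS, so 0 in lists this short sets them apart in none. Their members with the highest mean over the 5 libraries were Irak2, with 21.9 and 14.9 FPKM in Irf8KO-labelled libraries, 36.8 and 17.4 FPKM in WT pristane and 13.2 FPKM in WT PBS, and Unc93b1, the carrier of endosomal TLRs, with 171 and 159.9 FPKM, 306 and 243 FPKM, and 253 FPKM in the same groups. Irak4, a kinase of the same list as Irak2, was above it in Irf8KO pristane replicate 2, at 21.4 FPKM. Among 14 inhibitors, Tnfaip3 (also called A20), which removes ubiquitin chains in NF-kB signalling, and Trafd1, a negative regulator of TLR signalling, rose in WT pristane by 2.23 and 2.37 on the log2 scale (limma adjusted p 0.0378 and 0.0266). Tnfaip3 had 202 and 129.7 FPKM in Irf8KO-labelled libraries, against 215 and 205 FPKM in WT pristane and 43.8 FPKM in WT PBS. Trafd1 stood near its PBS level in Irf8KO pristane, at 11.5 and 12.2 FPKM, against 59.7 and 72.4 FPKM in WT pristane and 12.0 FPKM in WT PBS.

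Of 8 partners of the surface receptors, Fcer1g, the signalling chain of Fc receptors, and Clec7a, the beta-glucan receptor that acts with Tlr2, rose in both comparisons with PBS and Ly86 fell in both. Over all genes 5.18% rose and 5.46% fell in WT pristane against PBS, and 3.81% and 4.72% in Irf8KO pristane against PBS. The log2 differences from PBS were 2.86 in Irf8KO pristane and 2.23 in WT pristane for Fcer1g, and 2.04 and 3.47 for Clec7a, with limma adjusted p between 0.0267 and 0.0462. Lbp and Cd36 were chosen after their values were seen, for the distance between the genotypes. Lbp, which carries LPS to Cd14, had 35.1 and 44.9 FPKM in Irf8KO-labelled libraries, 1.33 and 4.93 FPKM in WT pristane and 12.3 FPKM in WT PBS. Cd36, a scavenger receptor that delivers lipopeptides to Tlr2 and Tlr6, had 24.1 and 14.3 FPKM in Irf8KO-labelled libraries, 181 and 127 FPKM in WT pristane and 65.5 FPKM in WT PBS. Their log2 differences between the pristane groups were 3.45 ± 0.52 (SE) and −2.97 ± 0.34 (SE), with limma adjusted p of 0.101 and 0.0694, so neither passed over all genes.

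Of 5 tested endosomal and other TLRs, Tlr13, a sensor of bacterial ribosomal RNA, rose in WT pristane (2.34 ± 0.34 SE, limma adjusted p 0.0378), and Tlr9, the DNA receptor, fell in Irf8KO pristane against PBS (−3.23 ± 0.35 SE, limma adjusted p 0.0324). Tlr9 had 1.68 and 0.811 FPKM in Irf8KO-labelled libraries, 7.66 and 6.48 FPKM in WT pristane and 19.7 FPKM in WT PBS. Among 14 response targets of NF-kB and LPS, Il1b, which encodes interleukin-1 beta, rose in both comparisons with PBS (5.39 in Irf8KO pristane and 6.24 in WT pristane, limma adjusted p 0.0378 and 0.0296). Il6, which encodes interleukin-6, rose in Irf8KO pristane against PBS (2.22 ± 0.24 SE, limma adjusted p 0.0324), with 101 and 76.7 FPKM in Irf8KO-labelled libraries, 26.0 and 26.3 FPKM in WT pristane and 18.1 FPKM in WT PBS. Over all genes 5.18% rose in WT pristane against PBS. In Irf8KO pristane against PBS 3.81% rose and 4.72% fell. Whether these lists differ from such shares was not tested. None of the pathway genes passed in Irf8KO pristane against WT pristane. Their lowest limma adjusted p there, 0.0541, was that of Ly86, Irf7 (log2 difference −4.92) and Trafd1 (−2.38), all lower. Il6 was higher there, by 1.71, with a limma adjusted p of 0.0694. The median log2 difference there was −0.89 for the endosomal and other TLRs, −0.54 for the response targets, −0.47 for the TRIF branch, −0.40 for the partners, −0.29 for the Myddosome genes, −0.25 for the adaptors, −0.22 for the inhibitors and 0.09 for folding and transport, against −0.00 over all genes. Every pathway call against PBS was lost when any 1 of the 4 pristane libraries was left out, since 0 genes passed then.

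In bulk samples fewer cells of a type and less RNA per cell cannot be told apart, and marker genes of cell types that carry these receptors differed between the groups. The 11 listed neutrophil markers summed to 46433 and 23725 FPKM in Irf8KO-labelled libraries, 16196 and 14495 FPKM in WT pristane and 154 FPKM in WT PBS, where Camp, Ltf and Elane were at 0. S100a8 gave 29441 and 16300 FPKM, 10376 and 9877 FPKM, and 92.5 FPKM of these sums. Most of the rest was S100a9, which overlapped between the pristane groups. Neutrophil markers were higher without overlap in Irf8KO than in WT pristane for 8 of 11, where 26.1% of all genes were higher in this way and 27.1% lower, the shares against which the counts of the other marker lists are to be read. The 10 inflammatory monocyte markers summed to 866 and 544 FPKM in Irf8KO-labelled libraries, 1329 and 2569 FPKM in WT pristane and 917 FPKM in WT PBS, and 8 of 10 were lower without overlap in Irf8KO than in WT pristane. Plac8 gave 706 FPKM of the PBS sum, and Ifitm6 gave 563 and 371 FPKM of the sums in Irf8KO-labelled libraries. Gene by gene, 8 of 10 were above PBS in both WT pristane libraries and 0 below, where 37.3% and 44.5% of all genes were. Ly6c1 was at 0 in Irf8KO pristane replicate 2. The 10 markers of resident large peritoneal macrophages summed to 1281 and 1994 FPKM in Irf8KO-labelled libraries, 116 and 154 FPKM in WT pristane and 2703 FPKM in WT PBS, with Vsig4 at 0 in WT pristane replicate 1. Of these 10, 8 were higher and 2, Timd4 and Lyve1, lower without overlap in Irf8KO than in WT pristane. Timd4 had 0.0957 and 0.552 FPKM in Irf8KO-labelled libraries against 26.9 FPKM in WT PBS, and Lyve1 0.232 and 0.112 FPKM against 4.11 FPKM. In both Irf8KO-labelled libraries 6 of the 10 were below PBS and 3 above, where 46.0% and 40.7% of all genes were.

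B cells express Cd180 and Ly86, and their 10 markers summed to 187 and 99.9 FPKM in Irf8KO-labelled libraries, 40.0 and 10.5 FPKM in WT pristane and 2478 FPKM in WT PBS, with Cr2 and Fcer2a at 0 in WT pristane replicate 2. B cell markers were thus highest with PBS, as Cd180 and Ly86 were, and 7 of 10 were higher without overlap in Irf8KO than in WT pristane, where Cd180 and Ly86 were lower. The 10 markers of dendritic cells and small peritoneal macrophages summed to 45.6 and 34.3 FPKM in Irf8KO-labelled libraries, 107 and 45.5 FPKM in WT pristane and 154 FPKM in WT PBS. Ccr7 gave 123 FPKM of the PBS sum, whereas Itgax had 1.27 FPKM there against 34.6 and 8.01 FPKM in WT pristane. Of the 10, 6 were above PBS in both WT pristane libraries and 3 below, where 37.3% and 44.5% of all genes were. Between the pristane groups, 7 of the 10 were lower without overlap in Irf8KO than in WT pristane. Cd209a and Clec9a were at 0 in Irf8KO pristane replicate 1, and Batf3 and Xcr1 in replicate 2. T cell markers (8) summed to 42.3 and 33.4 FPKM in Irf8KO pristane, 112 and 77.3 FPKM in WT pristane and 129 FPKM in WT PBS, and all 8 were lower without overlap in Irf8KO than in WT pristane. Natural killer cell markers (6) summed to 31.9 and 22.7 FPKM in Irf8KO pristane, 79.1 and 59.4 FPKM in WT pristane and 3.00 FPKM in WT PBS. Mast cell markers (8) summed to 112 and 114 FPKM in Irf8KO pristane, 190.1 and 52.4 FPKM in WT pristane and 329 FPKM in WT PBS. Hdc made up most of the pristane sums, with 108 and 110 FPKM in Irf8KO pristane and 186 and 50.2 FPKM in WT pristane. It had 10.9 FPKM in WT PBS. Cma1 went the other way, with 2.38 and 3.40 FPKM, 1.12 and 0.834 FPKM, and 134 FPKM in the same groups. Of 7 tested, 6 were below PBS in both WT pristane libraries and 1, Hdc, above, where 44.5% and 37.3% of all genes were. Of 4 tested eosinophil markers, 3 were lower without overlap in Irf8KO than in WT pristane, and of 7 markers of stroma and mesothelium 1 was. Of 5 tested markers of platelets and erythroid cells, 1 was higher in this way. Over all genes 27.1% were lower and 26.1% higher. The part of these cell types in the differences of the TLR genes was not tested.

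**Figure D4:**
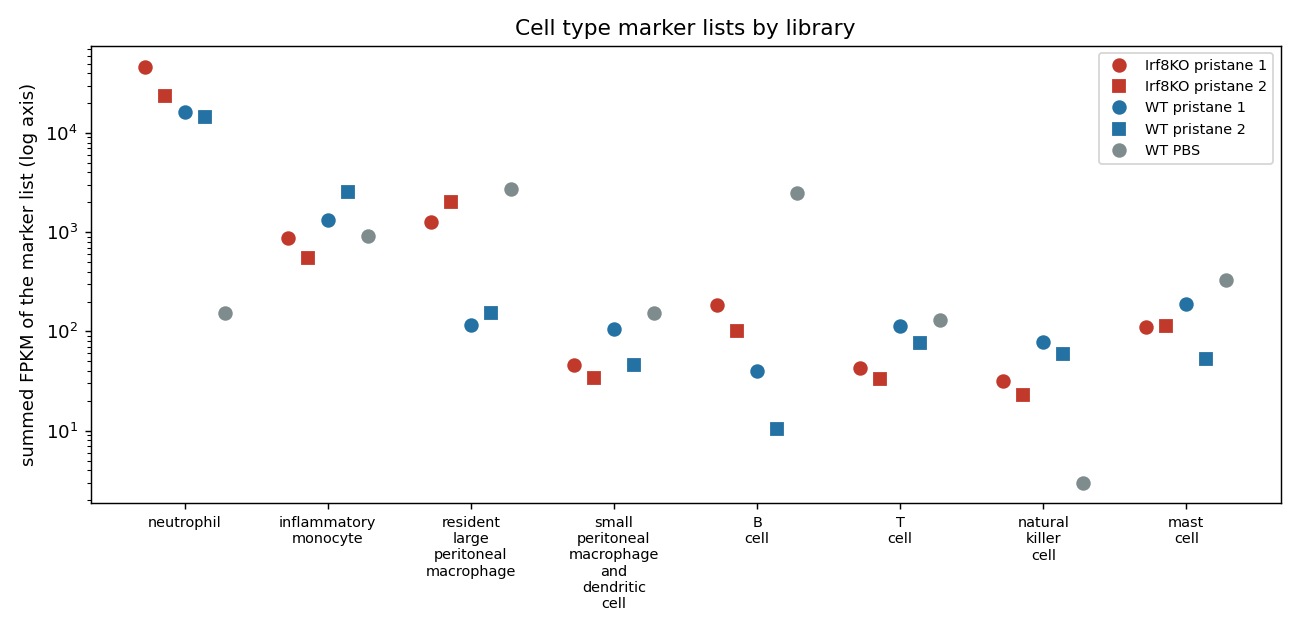
Summed FPKM of 8 cell type marker lists in each library, on a log axis. Resident macrophage and B cell sums are highest in WT PBS, neutrophil sums are highest in Irf8KO pristane, and inflammatory monocyte sums are highest in WT pristane.

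The 6 members with a mean log2(FPKM + 1) of at least 3 were compared with all other genes at that level by the root mean square difference of their centred log2 values over the 5 libraries. Tlr2 was nearest to Tnfrsf1b (0.11), Itga5 (0.22) and Fgr (0.22). Tnfrsf1b, which encodes a receptor for tumour necrosis factor, had 78.3 and 59.4 FPKM in Irf8KO-labelled libraries, 158 and 85.1 FPKM in WT pristane and 14.9 FPKM in WT PBS. Cd14 was nearest to Tmem51 (0.08), Mapk3 (0.10) and Rcan1 (0.10), and Tlr4 to Asl (0.14), Fcgr2b (0.15) and Capn2 (0.16). Cd180 was nearest to Cblb (0.06), Tug1 (0.13) and Ly96 (0.14), Ly96 to Prpf31 (0.06), Sertad1 (0.08) and Atf4 (0.10), and Ticam1 to Myo1g, Sptan1 (both 0.05) and Unc93b1 (0.08). Among the members themselves, Ly96 and Cd180 had the smallest difference (0.14) and Tlr2 and Cd180 the largest (1.58). With 4761 candidate genes and 5 libraries, these likenesses are a description of the libraries only.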

How the data were processed

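RNA of mouse peritoneal lavage cells was sequenced in 5 libraries. The values deposited by the authors are FPKM, although the table's title speaks of gene counts: they are not whole numbers, and low values times transcript length gather at multiples of 1 constant per library. Per the submitters' processing notes the tools were BWA, TopHat2 2.0.10, Cufflinks 2.2.1 and Cuffnorm, with no role given. The sources used here do not give the genome build, the annotation or the scaling between libraries.

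limma 3.58.1 (trend option, R 4.3.3) was run on log2(FPKM + 1) of the 11117 genes that reached 1 FPKM in any library. The model had a mean per group over the 5 libraries, 2 residual and 1.99 prior degrees of freedom. P-values are 2-sided and Benjamini-Hochberg adjusted over all genes tested. On simulated data with independent genes, the fit recovered 93 of 100 genes given a log2 change of 2 between Irf8KO and WT pristane, 83 between WT pristane and PBS, and 70 between Irf8KO pristane and PBS. The changed genes had a mean log2 of at least 3, and the noise was normal with the variances as moderated by limma. These counts therefore do not give the power in the data. There, Alox15 missed the threshold at a log2 difference of 6.38 between the pristane groups (limma adjusted p 0.0661). Log2 values of low genes understate the change. Fragments were estimated from values under 0.3 FPKM of single-transcript genes in GENCODE M21, 1000 bp or longer. Of the products that rounded to 1 or 2 fragments, 66.7% to 81.0% lay within 0.15 of that number. Fragments per gene assume the longest coding transcript. The members and lists were chosen with earlier results of these data known. Named genes were the 9 members, pathway list genes past the threshold or, in lists with none, of the highest level, genes of the marker lists, and the 3 genes nearest to each member of mean log2 of at least 3. Lbp, Cd36, Timd4, Lyve1 and the markers listed at 0 were named outside this rule, after their values were seen. Alternatives were another pseudocount, filters, scalings, a replicate block, the pristane libraries alone and leaving out each pristane library.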

Additional observations from a re-analysis of the deposited data

How the results depend on the processing

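By limma, 0 genes and 0 members were past the threshold in each comparison once a pristane library, whichever of the 4, had been dropped. The number with an unadjusted p under 0.05 was then 1022 to 2517 for Irf8KO against WT pristane, 2757 to 3749 for WT pristane against PBS and 2261 to 3984 for Irf8KO pristane against PBS. With the replicate block 0 genes and 0 members passed in each of the 3 comparisons, with 2096, 3195 and 3193 genes at an unadjusted p under 0.05. That fit has 1 residual degree of freedom, and the replicate numbers share no more than a number (correlation of deviations 0.04). In Irf8KO against WT pristane 0 genes passed with a pseudocount of 0.1 and with no filter (2234 and 2586 at an unadjusted p under 0.05), and 242 with a mean of at least 5 FPKM (105 higher, 137 lower). In WT pristane against PBS 0 members passed with a pseudocount of 0.1 and with no filter (Tlr2 log2 difference 3.21 and 3.15, adjusted p 0.0513 and 0.0696). In Irf8KO pristane against PBS 2 members passed with a mean of at least 5 FPKM, Tlr2 higher and Cd180 lower.

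Signs turned for small differences. With a pristane library left out, values ran from −0.55 to 0.50 for Cd14 and −0.81 to 0.23 for Tlr6 in Irf8KO against WT pristane, from −0.72 to 0.068 for Ly96 and −0.14 to 0.23 for Ticam1 in WT pristane against PBS, and from −0.056 to 0.024 for Trafd1 and −0.32 to 0.16 for Pik3ap1 in Irf8KO pristane against PBS. Quantile normalization gave −0.017 for Ticam1 in WT pristane against PBS. The cause was not tested. Of 162 other values of the members, 156 kept their direction and their side of the threshold. Depth limits Tlr1, Tlr5, Tlr6 and Ly96, each with about 109 fragments or fewer in every library.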
